A study of Mus musculus with 8 samples.

Results

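The 10 genes described here mark mesothelium and simple epithelium. They are *Msln*, *Upk3b*, *Upk1b*, *Lrrn4*, *Wt1* and *Gpm6a*, which mesothelial cells are known for, and the keratins *Krt7*, *Krt8*, *Krt18* and *Krt19*. They were chosen by symbol among the 21859 genes listed in the count files, and all 10 were found. RNA was sequenced from the aortas of 4 male *ApoE-/-* mice, which lack apolipoprotein E and develop atherosclerosis, and of 4 male WT mice, all on the C57BL/6 background, 40 weeks old and on a chow diet. Mice were fasted and perfused with saline before the whole aorta was taken, and each aorta gave a library of stranded, ribodepleted total RNA. The knockout is germline, so every cell type of these mice lacks a functional gene. The comparison asked which of the 10 genes differed between the aortas of the 2 genotypes.

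Mesothelium is the thin sheet of flat cells that lines the pleural, pericardial and peritoneal cavities and covers the organs inside them. Its cells carry surface glycoproteins and uroplakins on their free side, keep a network of keratins like other simple epithelia, and express the transcription factor *Wt1*. Keratins form filaments as pairs of a type II chain (*Krt7*, *Krt8*) and a type I chain (*Krt18*, *Krt19*). The layers of the aortic wall itself are endothelium, smooth muscle and adventitia, and the outside of the vessel adjoins fat, nerve and, along parts of its course, serosal lining. In RNA from a whole aorta, fewer cells of a type and less RNA per cell cannot be told apart.

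Read pairs counted on genes numbered 23240995 to 23940156 in *ApoE-/-* mice and 18375898 to 21664598 in WT mice. Levels are given as raw counts and as CPM, the counts scaled to a common library size after TMM normalization, and 3 counts corresponded to 0.122 to 0.166 CPM, below which a level cannot be told from absence at this depth. These limits cover counting error only. *Apoe*, the disrupted gene, had 14.7 to 36.3 CPM in *ApoE-/-* mice and 536 to 857 CPM in WT mice (log2 fold change −4.83, SE 0.37, adjusted p = 0.0141 in edgeR). Smooth muscle genes were abundant in every library, with 1884 to 8224 CPM of *Myh11*, the smooth muscle myosin heavy chain. The library of *ApoE-/-* replicate 1 stood apart. It had the lowest *Myh11*, and 8 genes of sympathetic neurons (*Th*, *Dbh*, *Snap25*, *Stmn2*, *Uchl1*, *Tubb3*, *Prph* and *Npy*) summed to 5757 CPM there against 59.0 to 1105 CPM in the other 7 libraries. Where leaving out this library turned a direction or changed a call, the value without it is given as well, from fits in which 3.91% of all genes passed the edgeR threshold, 2.75% higher and 1.16% lower in *ApoE-/-* mice.

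The sequences just around the start of 4 of the genes are shown because these genes contrast in the results below. *Upk3b* and *Lrrn4* had their highest level in the same library, while *Krt8* and *Krt18* encode partner chains and lie 23697 bases apart on chromosome 15 but had different levels. Each window holds 300 bases of RefSeq sequence (GRCm38.p6), 250 before and 50 after the start, printed 5′ to 3′ on the strand of the gene, with capitals for the motifs named after the sequences. They lie at chr5:136038246-136038545 (*Upk3b*, plus strand), chr2:132880813-132881112 (*Lrrn4*, minus strand), chr15:102004293-102004592 (*Krt8*, minus strand) and chr15:102027966-102028265 (*Krt18*, plus strand).
Upk3b: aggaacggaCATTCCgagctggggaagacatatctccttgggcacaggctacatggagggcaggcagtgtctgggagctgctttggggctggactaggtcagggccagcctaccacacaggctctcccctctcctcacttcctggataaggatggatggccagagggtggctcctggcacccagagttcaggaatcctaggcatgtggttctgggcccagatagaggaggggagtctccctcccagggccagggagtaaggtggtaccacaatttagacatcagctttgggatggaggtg
Lrrn4: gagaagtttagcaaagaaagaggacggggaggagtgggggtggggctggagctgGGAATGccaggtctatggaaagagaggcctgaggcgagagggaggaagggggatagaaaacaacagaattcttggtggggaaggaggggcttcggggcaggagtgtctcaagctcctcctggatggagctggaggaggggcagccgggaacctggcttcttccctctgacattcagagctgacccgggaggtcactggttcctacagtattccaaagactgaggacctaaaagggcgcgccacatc
Krt8: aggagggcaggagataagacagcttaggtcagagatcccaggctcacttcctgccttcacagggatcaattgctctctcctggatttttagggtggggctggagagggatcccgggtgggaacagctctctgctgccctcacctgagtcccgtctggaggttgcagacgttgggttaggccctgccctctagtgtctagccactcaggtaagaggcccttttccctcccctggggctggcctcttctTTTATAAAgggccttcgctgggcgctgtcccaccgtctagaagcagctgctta
Krt18: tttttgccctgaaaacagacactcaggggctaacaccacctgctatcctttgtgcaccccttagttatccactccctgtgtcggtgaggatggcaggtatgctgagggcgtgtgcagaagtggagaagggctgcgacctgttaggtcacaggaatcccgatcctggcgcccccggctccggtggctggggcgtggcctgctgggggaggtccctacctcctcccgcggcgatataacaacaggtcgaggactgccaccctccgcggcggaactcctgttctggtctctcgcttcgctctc
The capitals in *Upk3b* and *Lrrn4* mark CATTCC, the core of the sites of TEAD transcription factors, or GGAATG, the same core on the opposite strand. The capitals in *Krt8* mark overlapping copies of TATAAA, the letters of the TATA box, and TTTATA, the same letters on the opposite strand. These copies begin 1 and 3 bases before the start and run across it. On either strand, CATTCC occurred in 14.7% and TATAAA in 13.6% of the 32851 promoters of the same length, so that neither match is rare. The GC box GGGCGG (35.7% of all promoters) and the AP-1 motif TGANTCA (7.81%) were not in these 4 windows. Windows were found for 6 of the 10 genes, with 2 for *Gpm6a*, and in these 7 windows CATTCC was found in 3, TATAAA in 2, GGGCGG in 2 and TGANTCA in 0. No window was matched for *Msln*, *Upk1b*, *Wt1* and *Krt19*. A match describes the letters only.

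Levels can be compared between genes only per length, so CPM was divided by the length of each gene's merged exons in GENCODE M21. On this scale *Gpm6a* had the highest mean in both genotypes, at 9.94 ± 2.38 CPM per kb (SD, n = 4) in WT mice and 5.0 ± 1.66 in *ApoE-/-* mice. *Krt18* had the next mean, at 1.95 ± 0.214 CPM per kb in WT mice and 2.58 ± 1.59 in *ApoE-/-* mice. Its range in WT mice (1.66 to 2.14 CPM per kb) lay entirely below that of *Gpm6a* (7.64 to 12.8), but in *ApoE-/-* mice the ranges overlapped (0.311 to 3.91 for *Krt18* and 3.31 to 7.20 for *Gpm6a*). In WT mice it also lay inside the ranges of *Upk3b* (0.110 to 4.03) and *Lrrn4* (0.671 to 2.64), so that only the first place of *Gpm6a* in WT mice stands beyond the spread. The WT means then ran from *Upk3b* (1.37 ± 1.85 CPM per kb) and *Lrrn4* (1.32 ± 0.91) through *Msln* (0.756 ± 0.961), *Krt19* (0.625 ± 0.559) and *Upk1b* (0.531 ± 0.768) to *Wt1* (0.289 ± 0.223), *Krt7* (0.251 ± 0.0999) and *Krt8* (0.147 ± 0.119). For *Upk3b*, *Msln* and *Upk1b* the SD exceeded the mean, and the ranges of all neighbours from *Upk3b* down to *Krt8* overlapped as well. In *ApoE-/-* mice *Lrrn4* followed *Krt18*, at 0.762 ± 0.279 CPM per kb, and *Krt8* was again the last, at 0.0493 ± 0.0215.

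**Figure D1:**
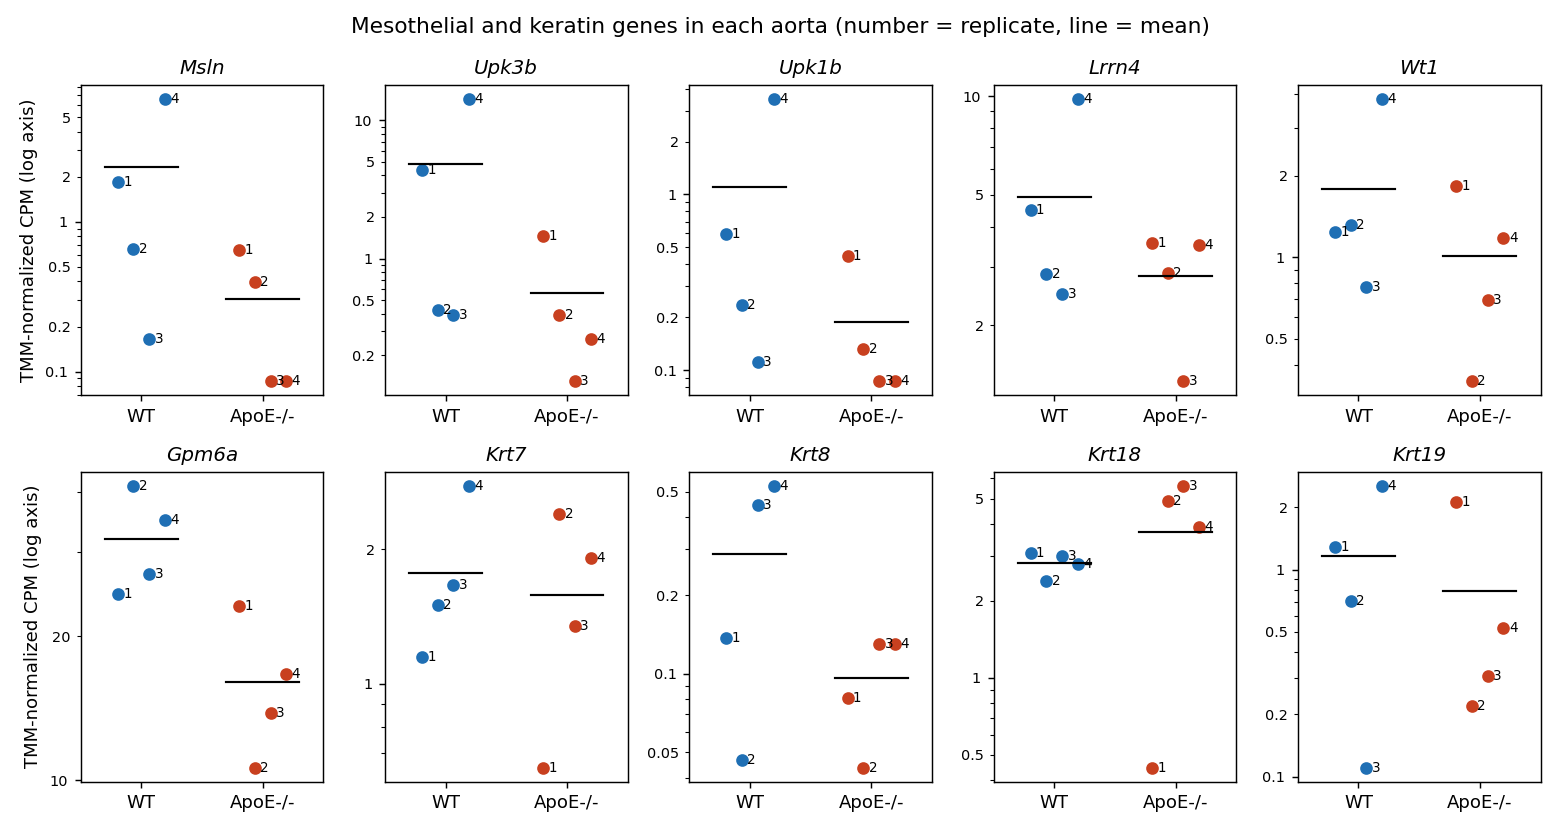
TMM-normalized CPM (vertical log axes, a separate scale for each gene) of the 10 genes in the 4 WT (blue) and 4 *ApoE-/-* (red) aortas. Each point is a mouse with its replicate number beside it, and the line is the mean of the 4. WT replicate 4 was the highest library for 8 of the genes, and for *Gpm6a* alone the genotypes do not overlap.

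Surface genes of mesothelium were low in most aortas and high in a few. *Msln* (ENSMUSG00000063011.7, chromosome 17, 25748613 to 25754378, minus strand) encodes mesothelin, a glycoprotein anchored to the mesothelial surface. It had 40, 14, 3 and 138 counts in WT replicates 1 to 4 (1.84, 0.655, 0.166 and 6.61 CPM) and 16, 9, 2 and 2 counts in *ApoE-/-* replicates 1 to 4 (0.649, 0.394, 0.0871 and 0.0868 CPM). WT replicates 4 and 1 were the highest, while WT replicate 3 lay below *ApoE-/-* replicates 1 and 2, so that the genotypes overlapped. The log2 fold change of *ApoE-/-* over WT was −2.90 (SE 1.11), with an unadjusted p of 0.0305 in edgeR and an adjusted p of 0.352, and it did not pass the threshold in DESeq2 either (adjusted p = 0.0983). Without WT replicate 4 the log2 fold change was −1.53, and without WT replicates 1 and 4 it was −0.41 (SE 0.99). The mice were left out together after their values were seen, and since they had the most *Msln* a smaller difference was fixed by that choice.

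*Upk3b* (ENSMUSG00000042985.7, chromosome 5, 136038496 to 136046487, plus strand) encodes uroplakin 3b, a membrane protein of mesothelium and urothelium. Its counts were 95, 9, 7 and 297 in WT replicates 1 to 4 (4.36, 0.421, 0.388 and 14.2 CPM) and 36, 9, 3 and 6 in *ApoE-/-* replicates 1 to 4 (1.46, 0.394, 0.131 and 0.260 CPM). Again WT replicates 4 and 1 were the highest, and *ApoE-/-* replicate 1 came next, above WT replicates 2 and 3. *Upk1b* (ENSMUSG00000049436.5, chromosome 16, 38773184 to 38800328, minus strand), a uroplakin of the tetraspanin family, had 13, 5, 2 and 73 counts in WT mice (0.597, 0.234, 0.111 and 3.49 CPM) and 11, 3, 2 and 2 in *ApoE-/-* mice (0.446, 0.131, 0.0871 and 0.0868 CPM). The same 3 libraries led in the same order, and 4 libraries held 3 counts or fewer. The low-count filter removed *Upk3b* and *Upk1b*, so that neither entered the test.

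*Msln*, *Upk3b* and *Upk1b* together had 797 counts in the 8 libraries. Of these, 719 (90.2%) came from WT replicate 4, WT replicate 1 and *ApoE-/-* replicate 1. Their summed level was 24.3, 6.79 and 2.56 CPM in these 3 libraries and 0.305 to 1.31 CPM in the other 5. *Upk3b* had 2.15, 2.38 and 2.25 counts for each count of *Msln* in WT replicate 4, WT replicate 1 and *ApoE-/-* replicate 1, although *Msln* itself varied from 138 to 16 counts. In WT replicate 2, with 14 counts of *Msln*, this ratio was 0.643. The ratio of *Upk1b* to *Msln* was less even, from 0.325 to 0.688 in the 3 libraries, on 11 to 73 counts of *Upk1b*. In WT mice, replicate 4 exceeded the median of the other 3 by 10.1-fold for *Msln*, 33.7-fold for *Upk3b* and 14.9-fold for *Upk1b*. In *ApoE-/-* mice, replicate 1 exceeded the median of the other 3 by 7.45-fold, 5.61-fold and 5.12-fold, though 2 of those 3 had only 2 counts of *Msln* and of *Upk1b*. Spread within a genotype was therefore as wide as 39.7-fold for *Msln* in WT mice, where the lowest mouse had only 3 counts. No batch, date or region of the aorta is given in the labels for these libraries.

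*Muc16* and *Bnc1* had the same 3 leading libraries or nearly so. They were singled out from the list of other mesothelial genes after their values were seen. No other gene of that list had these 3 libraries as its highest 3. *Pkhd1l1* was highest in WT replicate 3, *Cldn15* in WT replicate 1 and *Calb2* in *ApoE-/-* replicate 1. *Tbx18* was highest in *ApoE-/-* replicate 2, *Ildr2* in *ApoE-/-* replicate 3, and *Pdpn* and *Aldh1a2* in *ApoE-/-* replicate 4. *Muc16*, a mucin that binds mesothelin, had 8.95, 0.889, 0.443 and 25.04 CPM in WT replicates 1 to 4 and 2.52, 2.19, 0.261 and 0.998 CPM in *ApoE-/-* replicates 1 to 4 (log2 fold change −2.56, SE 1.23, adjusted p = 0.505 in edgeR). The 3 libraries held 88.0% of its 886 counts. *Bnc1*, a transcription factor, had 30 counts in WT replicate 4, 11 in WT replicate 1 and at most 6 in every other library, and the 3 libraries held 85.2% of its 54 counts.

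**Figure D2:**
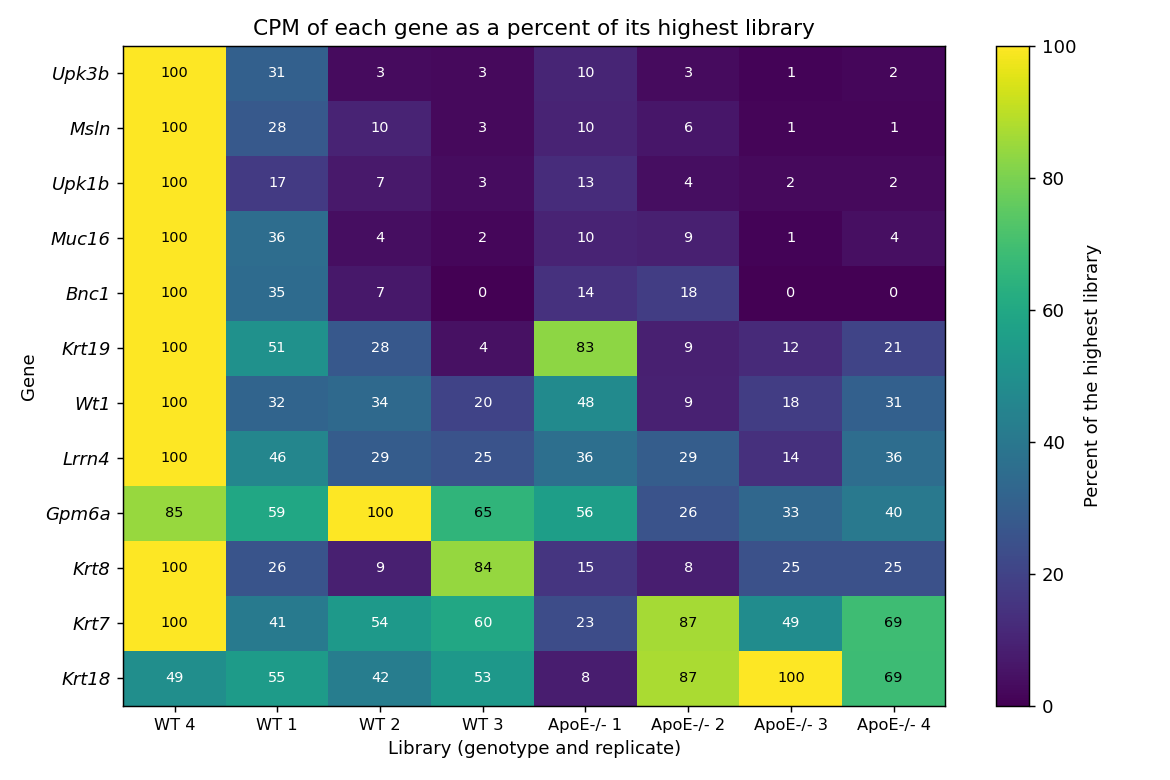
Level of 12 genes (rows of the map) in each library (columns), as a percent of the gene's highest library, with WT replicates 4 and 1 placed first. *Upk3b*, *Msln*, *Upk1b*, *Muc16* and *Bnc1* are at 0 to 18% in all libraries other than WT replicates 4 and 1, whereas *Gpm6a*, *Krt7* and *Krt18* have another pattern.

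*Lrrn4* and *Wt1* had the same highest library but were present in all 8. *Lrrn4* (ENSMUSG00000043110.2, chromosome 2, 132868305 to 132880891, minus strand) encodes a membrane protein with leucine-rich repeats. It had 4.50, 2.86, 2.49 and 9.81 CPM in WT replicates 1 to 4 and 3.57, 2.89, 1.35 and 3.52 CPM in *ApoE-/-* replicates 1 to 4, on 31 to 205 counts. WT replicate 4 was 3.44-fold above the median of the other WT mice, and the remaining libraries overlapped between genotypes, at 2.49 to 4.50 CPM in WT and 1.35 to 3.57 CPM in *ApoE-/-* mice. On the log2 scale *ApoE-/-* over WT was −0.80 (SE 0.50, adjusted p = 0.658 in edgeR), −0.21 without WT replicate 4 and 0.11 without WT replicates 1 and 4. These are the WT mice with the most *Lrrn4*, left out together after their values were seen, so that a move in this direction was fixed by the choice.

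*Wt1* (ENSMUSG00000016458.15, chromosome 2, 105126529 to 105173616, plus strand) encodes the zinc finger factor of mesothelium, epicardium and kidney podocytes. Its level was 1.24, 1.31, 0.776 and 3.83 CPM in WT replicates 1 to 4 and 1.83, 0.350, 0.697 and 1.17 CPM in *ApoE-/-* replicates 1 to 4, on 8 to 80 counts. *ApoE-/-* replicate 1 ranked second after WT replicate 4, and the genotypes overlapped. Its log2 fold change came to −0.82 (SE 0.62, adjusted p = 0.745 in edgeR), and it was −0.13 without WT replicate 4. The 3 libraries that led for *Upk3b* and *Upk1b* held 57.9% of the counts of *Lrrn4* and 62.0% of those of *Wt1*, a smaller share than for the surface genes.

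*Gpm6a* was the only one of the 10 genes whose level in every *ApoE-/-* mouse lay below that in every WT mouse, as it did for 3.3% of all genes tested. *Gpm6a* (ENSMUSG00000031517.8, chromosome 8, 54954843 to 55060871, plus strand) encodes a membrane glycoprotein of the proteolipid family that neurons express strongly and that is also known from mesothelium. It had 535, 882, 487 and 730 counts in WT replicates 1 to 4 (24.6, 41.3, 27.0 and 34.9 CPM) and 570, 243, 317 and 385 counts in *ApoE-/-* replicates 1 to 4 (23.1, 10.6, 13.8 and 16.7 CPM). The mean was 31.9 ± 7.65 CPM (SD, n = 4) in WT mice and 16.1 ± 5.32 in *ApoE-/-* mice, with the lowest WT mouse just above the highest *ApoE-/-* mouse.

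The log2 fold change of *Gpm6a* was −0.99 (SE 0.26). Its unadjusted p in edgeR was 0.0055 and its adjusted p 0.152, so that it did not pass the threshold, whereas DESeq2 gave an adjusted p of 0.012. Without *ApoE-/-* replicate 1 the log2 fold change was −1.22 and edgeR's adjusted p 0.029, and without WT replicates 1 and 4 it was −1.07 with an adjusted p of 0.662. WT replicate 2 had the most *Gpm6a* (41.3 CPM) but 1.31 CPM of *Msln*, *Upk3b* and *Upk1b* together. Without the 3 libraries that held 90.2% of the counts of these surface genes, left out after their values were seen, the log2 fold change of *Gpm6a* was −1.31 (SE 0.27, adjusted p = 0.193 in edgeR). The part of mesothelium in the level of *Gpm6a* was not tested.

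Genes of sympathetic neurons were set beside *Gpm6a*. Their summed level was 578, 1105, 294 and 782 CPM in WT replicates 1 to 4 and 5757, 59.0, 463 and 130 CPM in *ApoE-/-* replicates 1 to 4. In both genotypes the mouse with the highest neuronal sum, WT replicate 2 and *ApoE-/-* replicate 1, also had the most *Gpm6a*, and *ApoE-/-* replicate 2 had the least of both. WT replicate 4 was next among the WT mice in both (782 and 34.9 CPM). In each genotype 1 pair of mice was in the opposite order. WT replicate 1 had more neuronal RNA than WT replicate 3 but less *Gpm6a* (24.6 against 27.0 CPM), and *ApoE-/-* replicate 3 more than *ApoE-/-* replicate 4 but less *Gpm6a* (13.8 against 16.7 CPM). Across genotypes, *ApoE-/-* replicate 1, with the highest neuronal sum of all, had less *Gpm6a* than every WT mouse. Between genotypes the neuronal genes overlapped, and the direction of their difference rested on *ApoE-/-* replicate 1. With it all 8 had a log2 fold change above 0 (median 1.18), and without it all 8 were below 0 (median −1.88), the direction of *Gpm6a*. Of the 8, 0 passed the edgeR threshold in either fit, with 0 and 1 at an unadjusted p under 0.05. DESeq2 gave an adjusted p for *Npy* alone (0.935) and none for the other 7. Their part in the level of *Gpm6a* was not tested. The list was written after the values of *Gpm6a* were seen.

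**Figure D3:**
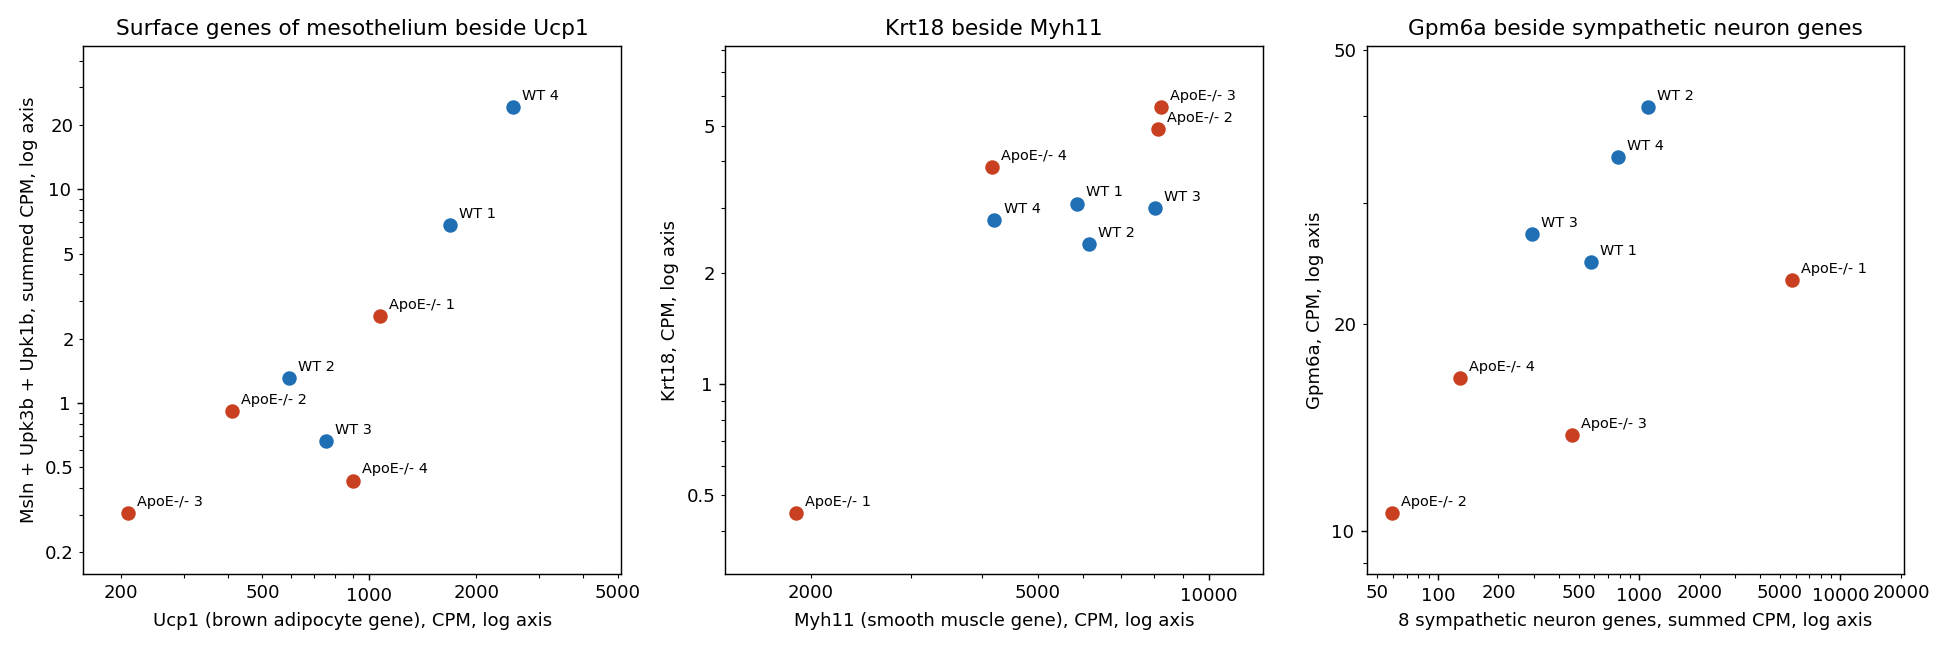
Levels of 3 pairs of measures in the 8 libraries (CPM, log axes), WT in blue and *ApoE-/-* in red, labelled with the replicate. The left panel sets *Msln*, *Upk3b* and *Upk1b* together against *Ucp1*, where the 3 highest libraries are in the same order, the middle panel *Krt18* against *Myh11*, where *ApoE-/-* replicate 1 is lowest in both, and the right panel *Gpm6a* against 8 sympathetic neuron genes, where WT mice lie above *ApoE-/-* mice in *Gpm6a*.

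The 4 keratins had different patterns. *Krt18* (ENSMUSG00000023043.7, chromosome 15, 102028180 to 102032027, plus strand), the type I chain of simple epithelia, had 3.08, 2.39, 2.99 and 2.78 CPM in WT replicates 1 to 4. The WT mice were nearly alike, with a coefficient of variation of 10.9%, the smallest of the 10 genes. In *ApoE-/-* replicates 1 to 4 its level was 0.446, 4.90, 5.62 and 3.86 CPM, so that replicates 2, 3 and 4 were above every WT mouse and replicate 1 was below every WT mouse. Between genotypes its log2 fold change was 0.40 (SE 0.60, adjusted p = 0.870 in edgeR), and without *ApoE-/-* replicate 1 it was 0.77 with an adjusted p of 0.0841, short of the threshold. Without *ApoE-/-* replicate 3 it was 0.13, and with limma-voom its sign turned (−0.10). *Myh11* was also lowest in *ApoE-/-* replicate 1 (1884 CPM) and highest in *ApoE-/-* replicates 3 and 2 (8224 and 8126 CPM), but *ApoE-/-* replicate 4 had 4155 CPM of *Myh11* with *Krt18* above every WT mouse, and WT replicate 3 had 8032 CPM with 2.99 CPM of *Krt18*. The part of smooth muscle in *Krt18* was not tested.

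*Krt8* (ENSMUSG00000049382.10, chromosome 15, 101996698 to 102004482, minus strand), the type II partner of *Krt18*, was close to the limit of detection. It had 3, 1, 8 and 11 counts in WT replicates 1 to 4 and 2, 1, 3 and 3 in *ApoE-/-* replicates 1 to 4, with 3 counts or fewer in 6 libraries, and did not pass the low-count filter. With no filter its log2 fold change was −1.52 (SE 0.73, adjusted p = 0.569 in edgeR). *Krt18* exceeded *Krt8* in every library, by 5.27 to 112 counts for each count of *Krt8*. Per length, *Krt18* had 1.95 ± 0.214 and *Krt8* 0.147 ± 0.119 CPM per kb in WT mice, and the lowest *Krt18* value (1.66) was above the highest *Krt8* value (0.269). Of the 50-base stretches in *Krt8* transcripts, 26.9% also occur in the pseudogene *Krt8-ps*, so that read pairs there could have been left out as not unique, against 0.72% for *Krt18*. The count of *Krt8* is uncertain for this reason.

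*Krt19* (ENSMUSG00000020911.14, chromosome 11, 100140810 to 100148665, minus strand), the type I keratin without a tail domain, had 28, 15, 2 and 53 counts in WT replicates 1 to 4 (1.29, 0.702, 0.111 and 2.54 CPM) and 52, 5, 7 and 12 in *ApoE-/-* replicates 1 to 4 (2.11, 0.219, 0.305 and 0.521 CPM). WT replicate 4, *ApoE-/-* replicate 1 and WT replicate 1 led again, and held 76.4% of its counts, more than for any other of the 4 keratins. It differed between genotypes by a log2 value of −0.55 (SE 0.92, adjusted p = 0.883 in edgeR). It was −1.73 without *ApoE-/-* replicate 1 and 0.16 without WT replicate 4, so that single mice set its size and its sign. *ApoE-/-* replicate 1 had 0.212 counts of *Krt18* for each count of *Krt19*, while in the other libraries *Krt18* had 1.09 to 27.0 counts for each count of *Krt19*.

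*Krt7* (ENSMUSG00000023039.17, chromosome 15, 101411043 to 101430313, plus strand), a type II keratin of simple and glandular epithelia, was at 1.15, 1.498, 1.66 and 2.78 CPM in WT replicates 1 to 4 and 0.649, 2.41, 1.35 and 1.91 CPM in *ApoE-/-* replicates 1 to 4. WT replicate 4 was the highest and *ApoE-/-* replicate 1 the lowest, and the genotypes overlapped over most of their range. On the log2 scale *ApoE-/-* over WT was −0.17 (SE 0.43, adjusted p = 0.938 in edgeR) and changed sign without *ApoE-/-* replicate 1 (0.09) or WT replicate 4 (0.14). The 3 libraries that led for *Upk3b* and *Upk1b* held 34.0% of the counts of *Krt7* and 23.8% of those of *Krt18*.

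**Figure D4:**
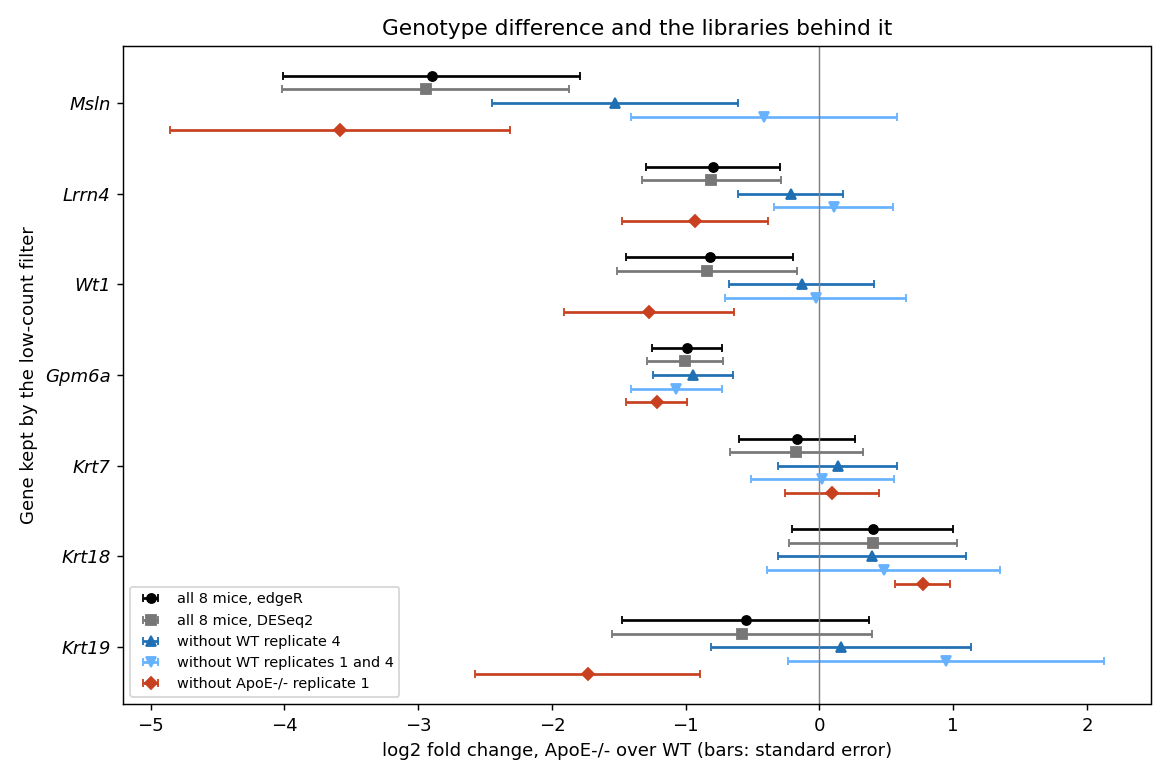
Log2 fold change of *ApoE-/-* over WT (horizontal axis, bars are standard errors) for the 7 genes that passed the low-count filter, with all 8 mice in edgeR and DESeq2 and with named mice left out in edgeR. *Gpm6a* stays between −1.22 and −0.95 in all 5 fits shown, while *Msln* ranges from −3.58 to −0.41 and *Krt19* from −1.73 to 0.95.

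The files list 49 keratin genes with a symbol of Krt and a number. Of the 45 other than *Krt7*, *Krt8*, *Krt18* and *Krt19*, 41 had at most 10 counts in every library. By mean CPM, not per length, the first 3 were *Krt80*, *Krt222* and *Krt79*, and *Krt79* (3.30 CPM) was hardly above *Krt18* (3.26 CPM). *Krt80*, a type II keratin, had 13.3 to 18.8 CPM in WT mice and 7.35, 26.1, 20.2 and 18.7 CPM in *ApoE-/-* replicates 1 to 4 (log2 fold change 0.22, SE 0.34, adjusted p = 0.872 in edgeR). As for *Krt18*, *ApoE-/-* replicate 1 was the lowest of the 8 libraries and the other 3 *ApoE-/-* mice were among the highest, and without replicate 1 the log2 fold change was 0.48 (adjusted p = 0.159 in edgeR). *Krt222* was at 13.9 CPM in *ApoE-/-* replicate 1 and 1.57 to 5.20 CPM elsewhere, with a log2 fold change of 0.43 (adjusted p = 0.883 in edgeR) that turned to −0.88 without that library (adjusted p = 0.183 in edgeR), and *Krt79* was at 1.48 to 6.10 CPM. Of the 7 keratin genes tested, 4 had a log2 fold change below 0 and 3 above, and 0 passed the threshold in edgeR, with 0 at an unadjusted p under 0.05. Without *ApoE-/-* replicate 1, 0 of the 7 passed the threshold and 3, *Krt18*, *Krt80* and *Krt222*, had an unadjusted p under 0.05. The share of all genes under 0.05 before adjustment was not counted for this fit, so the 3 cannot be set against it.

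Of the 10 genes, 7 passed the low-count filter. The edgeR threshold, an adjusted p under 0.05, was passed by 0 of the 7 and by 70 of all 15077 genes tested (0.464%), 14 of them lower in *ApoE-/-* mice (0.0929%). Before adjustment, 2 of the 7 were under 0.05, *Msln* and *Gpm6a*, against 11.4% of all genes. DESeq2 called 1 of the 7, *Gpm6a*, against 4.81% of all genes. The genotypes did not overlap for 1 of the 7, *Gpm6a*, against 8.71% of all genes, 3.3% lower and 5.41% higher in *ApoE-/-* mice. The log2 fold change was below 0 for 6 of the 7 and above 0 for *Krt18*, with a median of −0.80, where 42% of all genes were below 0 and their median was 0.05. The 3 genes removed by the filter, *Upk3b*, *Upk1b* and *Krt8*, are not part of these counts. P-values weigh the difference between genotypes against the spread between these mice.

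Other genes known from mesothelium went in both directions. Of a list of 12, 10 were tested, with a log2 fold change below 0 for 4 and above 0 for 6 and a median of 0.04. edgeR called 0 of the 10, with 5 at an unadjusted p under 0.05, and DESeq2 called 3, *Cldn15*, *Aldh1a2* and *Pdpn*. The 5 with the highest mean level were *Pkhd1l1*, *Tbx18*, *Ildr2*, *Cldn15* and *Pdpn*. The part of mesothelium in the levels of the listed genes was not tested. *Cldn15*, a tight junction claudin, had 20.7 to 32.2 CPM in the WT aortas, against 11.9 to 15.2 CPM in the *ApoE-/-* aortas without overlap (log2 fold change −0.99, SE 0.16, adjusted p = 0.0526 in edgeR and 8.68e-06 in DESeq2), and without *ApoE-/-* replicate 1, where it was the 1 gene called of the 10, it had −1.04 (adjusted p = 0.0212 in edgeR). Without that mouse 5 of the 10 were below 0, with a median of −0.22. *Pkhd1l1*, fibrocystin-like, had 99.1 to 132 CPM in the WT aortas, against 38.5 to 86.2 CPM in the *ApoE-/-* aortas without overlap (log2 fold change −0.75, SE 0.24, adjusted p = 0.225 in edgeR and 0.0709 in DESeq2). *Pkhd1l1* was highest in WT replicate 3.

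*Pdpn*, podoplanin, and *Aldh1a2*, a retinaldehyde dehydrogenase, lay the other way. *Pdpn* had 6.98 to 12.7 CPM in the WT aortas, against 16.4 to 26.6 CPM in the *ApoE-/-* aortas without overlap (log2 fold change 0.83, SE 0.24, adjusted p = 0.190 in edgeR and 0.0461 in DESeq2). *Aldh1a2*, named for its DESeq2 call after its values were seen, had 1.27 to 1.68 CPM in the WT aortas, against 2.23 to 5.12 CPM in the *ApoE-/-* aortas (log2 fold change 1.38, SE 0.30, adjusted p = 0.0899 in edgeR and 0.00366 in DESeq2). *Tbx18*, a T-box factor, was at 35.0 to 67.6 CPM in the WT aortas, against 18.2 to 77.2 CPM in the *ApoE-/-* aortas (log2 fold change 0.07, adjusted p = 0.974 in edgeR). *Ildr2*, a membrane protein, was at 27.7 to 41.6 CPM in the WT aortas, against 38.4 to 73.5 CPM in the *ApoE-/-* aortas (log2 fold change 0.61, adjusted p = 0.325 in edgeR). *Calb2*, calretinin, which mesothelium shares with neurons and which was named after its values were seen, had 180 counts in *ApoE-/-* replicate 1 and at most 10 in each other library.

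Genes of epithelial adhesion and identity were low. Of a list of 12, 6 were tested, with 2 below 0, 4 above 0, a median log2 fold change of 0.28 and 0 called by edgeR, 0 at an unadjusted p under 0.05 and 0 by DESeq2. Without *ApoE-/-* replicate 1, 3 were below 0 and 3 above, with a median of 0.05, 0 called by edgeR and 2, *Cdh1* and *Cldn3*, at an unadjusted p under 0.05. The 5 with the highest mean level were *Esrp2*, *Cdh1*, *Cldn3*, *Prss8* and *Grhl2*. *Esrp2*, an epithelial splicing regulator, had 2.83 to 3.37 CPM in the WT aortas, against 3.22 to 5.12 CPM in the *ApoE-/-* aortas. *Cdh1*, E-cadherin, was at 1.06 to 3.46 CPM in WT mice, and at 8.81 CPM in *ApoE-/-* replicate 1 against 0.306 to 1.35 CPM in the other *ApoE-/-* mice. Its log2 fold change was 0.28 (adjusted p = 0.952 in edgeR), and without that library −1.39 (adjusted p = 0.229 in edgeR). *Cldn3*, *Prss8* and *Grhl2* stayed between 0.608 and 2.35 CPM in all libraries. *Epcam*, a defining marker of simple epithelium named after its values were seen, had at most 7 counts in any library. In each library these were fewer than the raw counts of *Krt18* or *Krt7*, which were not compared with it per length.

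Markers of other epithelia were sparser still. Of 10 genes of stratified epithelium 2 were tested, *Krt10* and *Trp63*, with 0 called, and the list summed to 3.14 to 5.64 CPM over the 8 libraries. Of 4 further uroplakin genes (*Upk1a*, *Upk2*, *Upk3a* and *Upk3bl*) *Upk1a* was tested and not called (log2 fold change −0.36, adjusted p = 0.765 in edgeR), and the 4 summed to 0.304 to 0.720 CPM, without the peak in WT replicate 4 that *Upk3b* and *Upk1b* had. None of 8 lung epithelial genes passed the filter. *Foxj1*, the factor of ciliated cells on that list, had 98 counts in *ApoE-/-* replicate 1 and at most 9 in each other library, and *Sftpb*, a surfactant protein, had at most 10 counts in any library.

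Genes of heart muscle and fat varied between the aortas as well. Of 9 tested cardiac muscle genes, such as *Ryr2* and *Myh6*, all 9 had a log2 fold change below 0 (median −2.77), 8 did not overlap between genotypes, DESeq2 called 6 and edgeR called 0, with 8 at an unadjusted p under 0.05. Without *ApoE-/-* replicate 1, edgeR called 7 of 10 tested as lower. The list summed to 420 to 739 CPM in the WT aortas, against 160 to 345 CPM in the *ApoE-/-* aortas, highest in WT replicate 1. *Ryr2*, which made up most of the sum in each *ApoE-/-* mouse, overlapped between genotypes (log2 fold change −0.02, adjusted p = 0.995 in edgeR, and 0.03 and 0.980 without *ApoE-/-* replicate 1). Adipocyte genes, such as *Fabp4* and *Cfd*, summed to 5878 to 11701 CPM in the WT aortas, against 2749 to 11541 CPM in the *ApoE-/-* aortas, with 6 of 8 below 0 and 0 called by edgeR, 0 by DESeq2 and 0 at an unadjusted p under 0.05. Their sum was highest in WT replicate 4 but next in *ApoE-/-* replicate 4, where the 3 surface genes summed to 0.434 CPM. *Ucp1*, the uncoupling protein of brown fat, was picked out of this list after its values were seen. Its level was 2540, 1682 and 1071 CPM in WT replicate 4, WT replicate 1 and *ApoE-/-* replicate 1, the order of the 3 surface genes, and 209 to 899 CPM in the other libraries, where the order differed. The part of heart and fat in the mesothelial levels was not tested.

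Genes of the cells of the wall itself were compared in the same way. Smooth muscle genes, such as *Myh11* and *Acta2*, summed to 11172 to 20963 CPM in the WT aortas, against 5038 to 20750 CPM in the *ApoE-/-* aortas, with 6 of 8 below 0 (median −0.14) and 0 called by edgeR, 0 by DESeq2 and 0 at an unadjusted p under 0.05. This direction rested on *ApoE-/-* replicate 1, without which 7 of 8 were above 0 (median 0.15), with 0 called by edgeR and 0 at an unadjusted p under 0.05. Endothelial genes, such as *Vwf* and *Pecam1*, were below 0 for 7 of 8 (median −0.34), with 0 called by edgeR, 4 at an unadjusted p under 0.05 and 3 by DESeq2, and edgeR called 2 as lower without *ApoE-/-* replicate 1. Adventitial fibroblast genes, such as *Dcn* and *Col1a1*, were above 0 for 8 of 8 (median 0.48), with 0 called by edgeR, 3 at an unadjusted p under 0.05 and 2 by DESeq2, and edgeR called 4 as higher without *ApoE-/-* replicate 1. Macrophage genes, such as *Lyz2* and *Mrc1*, were above 0 and without overlap for 8 of 8 (median 1.42), with 8 at an unadjusted p under 0.05 and 5 called by DESeq2. For this list edgeR called 1 with all mice and 5 without *ApoE-/-* replicate 1. The 1 was *Trem2*, a lipid-sensing receptor named after its values were seen, which was at 1.03 to 1.61 CPM in WT mice and rose to between 5.07 and 40.8 CPM in *ApoE-/-* mice (log2 fold change 4.10, SE 0.62, adjusted p = 0.0434 in edgeR).

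The genes most like the mesothelial ones over the 8 libraries were found by Pearson's r between log2 CPM and the mean standardized log2 CPM of the 4 tested mesothelial genes, *Msln*, *Lrrn4*, *Wt1* and *Gpm6a*. The first 10 were *Pfkfb3* (r = 0.997), *Fbxo22* (0.979), *Qk*, *Acot4*, *Usp33*, *Tmem120a*, *Ppp1r3g*, *Nrg4*, *Lrp3* and *Fam43a* (0.945). *Pfkfb3* encodes an enzyme that regulates glycolysis, and it had 296 to 781 CPM, highest in WT replicate 4. Among genes of the lists, *Krt19* had r = 0.816 and *Muc16* r = 0.807, while *Krt7* had r = 0.0935 and *Krt18* r = −0.409. Another measure, added after the values were seen, was the mean standardized log2 CPM (0.5 added to counts) of *Msln*, *Upk3b* and *Upk1b* alone. Against it *Muc16* had rank 4 (r = 0.938) and *Bnc1* rank 8 (r = 0.917) of all genes with 50 counts or more. *Lrrn4* had r = 0.892, *Wt1* 0.757, *Gpm6a* 0.565 and *Krt18* −0.322. These are descriptions over 8 libraries that share the 3 leading ones. *Anxa8*, annexin A8, the gene of the study, had 2.88 to 4.68 CPM in WT mice and rose to 15.1 to 48.4 CPM in *ApoE-/-* mice (log2 fold change 3.00, SE 0.40, adjusted p = 0.0380 in edgeR), and its r with the mesothelial mean was −0.64.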

How the data were processed

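RNA was sequenced from 8 aortas, 1 library per mouse, from stranded, ribodepleted total RNA as paired 50-base reads. The authors deposited, for each mouse, the raw counts of pairs on every gene, not normalized. The submitters' processing notes name TopHat2, HTSeq, GRCm38 and mm10 without roles, and the annotation is not given in the sources used here. Pairs on no feature (50.1 to 58.0% of all pairs), ambiguous pairs (0.850 to 1.32%) and pairs not unique (11.8 to 14.3%) were left out of library sizes.

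Counts were analysed in R 4.3.3 with edgeR 4.0.16, using filterByExpr, TMM factors, glmQLFit with robust estimation and glmQLFTest, genotype as the only factor, two-sided, with Benjamini-Hochberg adjustment over all genes kept and a threshold of 0.05. The standard error is the size of a log2 fold change over the square root of F. The code was tested on simulated data. Alternatives were DESeq2 1.42.0 (the tool the study used), limma-voom (limma 3.58.1), RLE and upper-quartile factors, 2 other filters, a fit that was not robust, a fit with the replicate numbers as blocks, and fits without named mice. For genes that are not members, the values without *ApoE-/-* replicate 1 were added after the data were seen. Groups and numbers came from the sample titles.

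The members and lists were chosen with earlier results of these data known. Named were the members, *Apoe*, *Anxa8*, the 5 most abundant genes of the mesothelial and epithelial lists, the 2 most abundant of each other list, the 3 most abundant keratins and the 10 genes most like the mesothelial members in log2 CPM (prior count 2). Other genes (*Muc16*, *Bnc1*, *Aldh1a2*, *Calb2*, *Epcam*, *Ucp1*, *Trem2*, *Dlk1*, *Grin2b*, *Pcdh15*, *Chst4*, the other uroplakin and neuron genes of the lists) were named after their values were seen. Of the 10 gene IDs, 9 matched GENCODE M21 (GRCm38) with their version, and *Wt1* differed in version. Promoters are from RefSeq (GRCm38.p6). *Krt7* overlaps an antisense gene, *Krt8* a gene on the opposite strand and *Gpm6a* 5 unclassified genes on its own strand, none of them in the files.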

Additional observations from a re-analysis of the deposited data

Results flagged for a closer look

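In groups of 4 mice, a value was singled out when its gap to the nearest other mouse, divided by the whole range of the group, exceeded Dixon's critical value for groups of 4. This was examined in 40 groups, the 10 genes and 10 summed lists in each genotype. For independent groups of normally distributed values, chance singles out about 1 in 20, or 2 of the 40. The groups here share libraries, and a summed list holds *Msln*, *Upk3b* and *Upk1b* again, so that this number is only a rough guide. In all, 5 groups were singled out, of which 3 belonged to the 10 genes. *Upk1b* was singled out in both genotypes, for *ApoE-/-* replicate 1 (ratio 0.877, 0.446 CPM against at most 0.131 CPM in the other 3) and for WT replicate 4 (ratio 0.856, 3.49 CPM against at most 0.597 CPM). *Krt19* was singled out for *ApoE-/-* replicate 1 (ratio 0.84, 2.11 CPM against at most 0.521 CPM). The summed cardiac genes stood apart in *ApoE-/-* replicate 4 (ratio 0.945), at 160 CPM against at least 335 CPM in the other *ApoE-/-* mice. This gap came from *Ryr2* (123 CPM against 213 to 311), and the other 9 genes summed to 132, 23.8, 47.7 and 36.8 CPM in *ApoE-/-* replicates 1 to 4, highest in replicate 1. The summed sympathetic neuron genes stood apart in *ApoE-/-* replicate 1 (ratio 0.929), at 5757 CPM against at most 463 CPM in the other *ApoE-/-* mice.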

How the results depend on the processing

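The count of 70 genes called, 56 higher and 14 lower in *ApoE-/-* mice, became 725 (470 and 255) with DESeq2 and 29 (21 and 8) with limma-voom, and 9 genes were lower with 10 counts required in every library. Leaving out 1 mouse at a time gave 0 to 593 genes, 0 to 417 higher and 0 to 176 lower. The 593 came without *ApoE-/-* replicate 1, the other 7 gave 0 to 17. Of the mesothelial and keratin genes, 0 were called, but 1, *Gpm6a*, with DESeq2, and leaving out a mouse gave 0 to 1, *Gpm6a* without *ApoE-/-* replicate 1. Without WT replicates 1 and 4, added after seeing the data, 0 genes were called (0 higher, 0 lower), and without these and *ApoE-/-* replicate 1, 4 (1 higher, 3 lower).

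The sign turned for *Krt18* with limma-voom (−0.10), for *Krt7* without *ApoE-/-* replicate 1 (0.09) or WT replicate 4 (0.14), for *Krt19* without WT replicate 4 (0.16), without WT replicates 1 and 4 for *Lrrn4* (0.11), *Krt7* (0.023) and *Krt19* (0.95), and without all 3 of these mice for *Krt7* (0.28). The other planned fits of the 7 genes kept their direction, and the calls changed for *Gpm6a* in 2 of them. Leaving out 1 mouse gave log2 fold changes of −3.58 to −1.53 for *Msln*, −1.01 to −0.21 for *Lrrn4*, −1.27 to −0.13 for *Wt1*, −1.22 to −0.84 for *Gpm6a*, 0.13 to 0.77 for *Krt18*, −0.44 to 0.14 for *Krt7* and −1.73 to 0.16 for *Krt19*. With no filter on low counts *Upk3b* had −3.10 (adjusted p = 0.468 in edgeR), *Upk1b* −2.52 (0.489) and *Krt8* −1.52 (0.569). *Upk3b* passed the filter in 7 of the 8 fits without 1 mouse, at −3.48 to −1.61, and without WT replicates 1 and 4, at 0.50. The causes were not tested.

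With the replicate number as a block, 2 genes were called (1 higher, 1 lower) and 0 of the members. Deviations of same-numbered mice correlated at 0.0593, −0.448, 0.316 and 0.162, only replicate 3 correlated best with its own number, and the mice share only a number, so the block is not a pairing.

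*Msln*, *Wt1* and *Krt19* have no value with 10 counts required in every library, nor *Msln* without all 3 mice, since they were then filtered out. *Msln* and *Upk1b* had 16 counts or fewer in each *ApoE-/-* library and *Krt8* 11 or fewer in every library, so that counting limits what can be seen in these genes.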

Other observations

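Within each genotype the mesothelial genes differed in how widely they varied. The coefficient of variation over the 4 WT mice was 127% for *Msln*, 135% for *Upk3b*, 145% for *Upk1b* and 130% for *Muc16*, against 68.8% for *Lrrn4*, 77.2% for *Wt1* and 23.9% for *Gpm6a*. Over the 4 *ApoE-/-* mice it was 89.3%, 109%, 92.4% and 70.3% for the first 4 genes and 36.6%, 63.2% and 33.1% for the other 3. Among the keratins, *Krt19* had 89.4% in WT and 113% in *ApoE-/-* mice, the widest of the 4 keratins in both genotypes.

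*Dlk1*, *Grin2b* and *Pcdh15* came before *Muc16* in likeness to the mean standardized log2 CPM of *Msln*, *Upk3b* and *Upk1b* (r = 0.958, 0.946 and 0.945 over 8 libraries). *Dlk1*, an imprinted regulator of fat precursors, had 3.45 CPM in WT replicate 4 and at least 0.566 CPM in every library. *Chst4*, a sulfotransferase, had rank 12 (r = 0.904), with 2.20 CPM in WT replicate 4. These genes were picked from the data by their likeness and no test was made on them.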
